A study of Homo sapiens with 15 samples.

Results

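The mucins and the carcinoembryonic antigen-related cell adhesion molecules (CEACAMs) are glycoproteins of the epithelial surface, and 10 of their genes were followed here in PE/CA-PJ41 cells, a human oral squamous carcinoma line. The members were 5 mucins (MUC1, MUC4, MUC15, MUC16 and MUC20) and 5 CEACAMs (CEACAM1, CEACAM5, CEACAM6, CEACAM7 and CEACAM19), and a probe was taken as a member where its transcript accession was listed by RefSeq for that gene. By this rule 9 of the 10 genes were found among the 19480 genes that could be named on the array, with 16 of its 42405 non-control probes. No probe carried a listed accession of MUC20, which was not analysed here.

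RNA was hybridised to Agilent SurePrint G3 Human Gene Expression arrays, and the green (Cy3) intensity of each probe was analysed. Cells labelled NCE carried the empty transfection vector, although the study also calls its NCE cells un-transfected, and cells labelled CYGB+ carried the CYGB vector, a pCMV6-Neo plasmid with the human cytoglobin cDNA. Both were stable G418-selected lines with no further treatment, kept for 24 h in supplemented medium before RNA extraction, and the cytoglobin cells were a single clone, so that clone and transgene cannot be told apart. Each group had 3 biological replicates extracted on separate occasions, and each replicate was hybridised to 3 arrays in the NCE group (9 arrays) and to 2 arrays in the CYGB+ group (6 arrays). The arrays of a replicate were averaged, so that 3 values were compared with 3. The CYGB+ arrays all lay on slide 2, beside 1 NCE array (replicate 1, array repeat 3), and the other 8 NCE arrays made up slide 1.

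Membrane-bound mucins carry long stretches that are densely decorated with O-linked glycans, and they form a lubricating and protective coat on wet epithelia such as the oral mucosa. MUC1, MUC4, MUC15 and MUC16 are anchored in the membrane, and MUC16 carries the antigen known as CA125. CEACAMs are immunoglobulin-type adhesion molecules: CEACAM1 has a cytoplasmic tail that binds phosphatases, whereas CEACAM5, CEACAM6 and CEACAM7 are held in the membrane by a lipid anchor.

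The targeted gene was examined first. The CYGB probe (A_33_P3285868) had log2 levels of 11.85, 12.15 and 11.96 in the libraries labelled NCE and of 11.38, 12.44 and 11.97 in those labelled CYGB+. The ranges overlapped, and the level in the NCE libraries was as high as in the CYGB+ libraries (difference −0.05, SE 0.25, limma adjusted p = 0.911). This goes against the labels if the probe reads the transgene. A probe outside the cDNA would not read it, and the target site of this probe is not given in the sources used here. The study describes the parent line as not expressing cytoglobin. The NCE mean was 11.99, where the median over all non-control probes was 6.30 to 6.33 over the arrays. Such a level is at odds with that description wherever the probe lies, and the reason was not tested. With slide as a term the difference was −0.19, and within slide 2 it was −0.12. The labels give Cy3 for every sample, whereas the study's methods give cyanine 5 for control RNA, and the red channel was not used. Every direction below is therefore that between libraries labelled CYGB+ and libraries labelled NCE.

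Signal differed between the slides: the median spot was 2.37 to 2.85 times its local background on slide 1 and 1.18 to 1.45 times on slide 2, while 53.8% to 61.3% of spots were well above background on each of the 15 arrays. Array repeat 1 of CYGB+ replicate 1 had the lowest median correlation with the other arrays (0.929), followed by repeat 2 of NCE replicate 3 (0.967) and repeat 2 of CYGB+ replicate 3 (0.971), and the other 12 arrays lay between 0.979 and 0.985. All 8 squamous epithelial markers examined, including KRT5, KRT14 and TP63, were measured above background. Of the 5 glandular epithelial markers KRT7, KRT8, KRT18 and AGR2 were above background on all 15 arrays, and TFF3 on none. Among the markers of other cells, the fibroblast genes DCN, LUM and PDGFRB, the leukocyte gene CD3E, the neutrophil gene CEACAM8 and the endothelial genes PECAM1 and VWF were above background on no array, whereas the leukocyte gene CD14 and the fibroblast gene COL1A2 were above it on all 15. The leukocyte gene PTPRC was above background on 3 NCE and 2 CYGB+ arrays and the endothelial gene CDH5 on 6 NCE and 5 CYGB+ arrays. KRT6A (−0.46, adjusted p = 0.0448) and COL1A2 (−1.32, adjusted p = 0.00308) were the markers called lower in the CYGB+ libraries and MPO the marker called higher (adjusted p = 0.00527). MPO was well above background on 1 of 9 NCE arrays and on 6 of 6 CYGB+ arrays, so that its NCE level of 6.20 is at background and no fold is given against its CYGB+ level of 7.67. Under the block EPCAM was also called lower (−0.47, adjusted p = 0.0403, and 0.0748 without it) and KRT14 higher (0.76, adjusted p = 0.0160, and 0.0679 without it).

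Of the 16 member probes, 6 were well above background on all 15 arrays: those of MUC1, MUC4 (3 probes), CEACAM1 and CEACAM19. The other 10 were not well above background on any array, and they included every probe of MUC15, MUC16, CEACAM5, CEACAM6 and CEACAM7. Their levels lay between 5.79 and 6.35 over all arrays, where the lowest level of any probe well above background on an array ranged from 5.71 to 6.20. These 5 genes were left out of the comparison, since such levels are bounds. With no filter on dim probes, limma called none of the 16 member probes, and 2 had an unadjusted p under 0.05, where 19.5% of all 42405 probes did. Further probes of MUC1 (A_33_P3332215), MUC4 (A_24_P208825) and CEACAM1 (A_33_P3268507) were among the dim probes. The dim MUC4 probe is listed for the same transcript as the others, so the MUC4 probes disagreed on whether a signal was present. For MUC1 and CEACAM1 the dim probe is listed for another transcript than the probe above background. Whether these probes read the same transcripts was not tested.

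**Figure D1:**
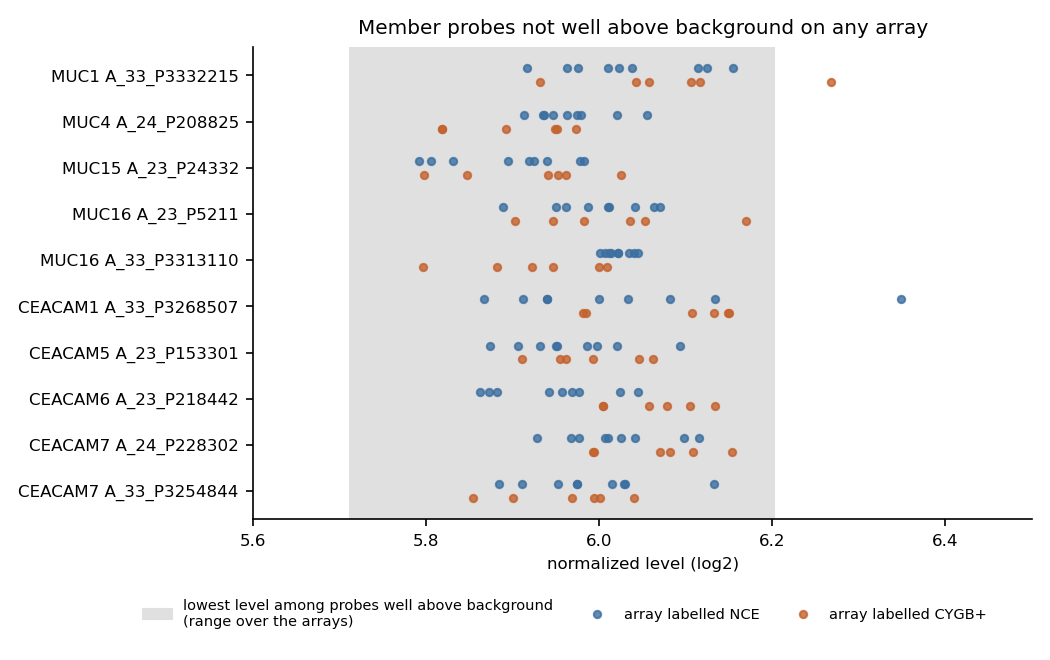
Normalized log2 level (horizontal axis) of the 10 member probes that were not well above background on any array, each point 1 array, coloured by group label. The grey band spans the lowest level among probes well above background on each array, 5.71 to 6.20, and the points lie between 5.79 and 6.35.

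A probe was tested where it was well above background on a share over 0.5 of the arrays of at least 1 group, which left 22012 probes and 6 of the member probes. None was called in either direction at a Benjamini-Hochberg adjusted p under 0.05 (limma, 3 replicates against 3), and the values of 4 were higher and of 2 lower in the libraries labelled CYGB+. Over all probes tested, 10.9% were called, 5.57% higher and 5.37% lower. At an unadjusted p under 0.05 a single member probe, that of CEACAM19, passed, where 27.8% of all probes did, and by the methods' t-test no member passed before or after adjustment, where 24.6% and 3.2% of all probes did. The median difference was 0.09 over the 6 probes and 0.01 over all probes tested. In all 6 the replicates of the groups overlapped, where 33.9% of all probes tested had groups that did not overlap. With the replicate number as a block 1 member was called (CEACAM19, lower), against 13.5% of all probes called, 6.71% higher and 6.78% lower, and it was again the single member with an unadjusted p under 0.05, where 31.5% of all probes passed.

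MUC1, a widely expressed membrane mucin whose tail takes part in signalling, was read by probe A_23_P137856. Its levels were 7.47, 7.18 and 7.49 in the NCE libraries and 7.38, 7.56 and 7.30 in the CYGB+ libraries. The ranges of the groups overlapped. The difference was 0.03 (SE 0.12, adjusted p = 0.896), with a 95% interval from −0.26 to 0.32. The direction changed with the slide: with slide as a term the difference was −0.52 (adjusted p = 0.264), and within slide 2 it was −0.50, since the NCE array on slide 2 stood at 7.92 and the mean of the other 2 arrays of that replicate at 7.25.

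MUC4, a large membrane mucin that associates with the receptor ERBB2, was read by 3 probes above background. Probe A_24_P239176 gave 9.83, 9.89 and 9.71 in the NCE libraries and 10.36, 10.16 and 9.72 in the CYGB+ libraries, a difference of 0.27 (SE 0.17, adjusted p = 0.339, interval −0.12 to 0.66). Replicates 1 and 2 of CYGB+ lay above every NCE replicate and replicate 3 did not. Probe A_33_P3417281 gave 7.56, 7.67 and 7.48 in NCE and 7.76, 7.86 and 7.66 in CYGB+, with an overlap of 7.66 and 7.67, and a difference of 0.19 (SE 0.10, adjusted p = 0.264, interval −0.04 to 0.42). Probe A_24_P239177 went the other way, with 9.02, 9.25 and 8.99 in NCE and 8.81, 9.22 and 8.70 in CYGB+ (difference −0.17, SE 0.16, adjusted p = 0.509, interval −0.54 to 0.19).

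The 3 MUC4 probes therefore did not give a common direction. With slide as a term they did, at 0.67 for A_24_P239176, 0.56 for A_33_P3417281 and 0.52 for A_24_P239177, and none was called (adjusted p = 0.444, 0.699 and 0.814 in that order). Within slide 2 the differences were 0.62, 0.53 and 0.48 in the same order. Without the 3 arrays of lowest correlation, probe A_24_P239176 kept its difference of 0.27 and passed the test (adjusted p = 0.0369) in a fit that called 11.9% of all probes higher. In that fit A_33_P3417281 was at 0.41 (adjusted p = 0.0525) and A_24_P239177 changed sign to 0.10. Without the array of lowest correlation A_24_P239176 was at 0.21, A_33_P3417281 at 0.31 and A_24_P239177 at 0.0153, and none was called. With all arrays and no slide term the mean over the 3 probes differed by 0.09 (adjusted p = 0.670). The difference between probes A_24_P239176 and A_24_P239177 within a library was 0.81, 0.64 and 0.73 in NCE and 1.55, 0.94 and 1.02 in CYGB+. These ranges did not overlap, and the two-sided exact permutation p was 0.1, the smallest that 3 against 3 allows. Without the array of lowest correlation the CYGB+ replicate 1 value was 0.81 in place of 1.55, and the exact permutation p was 0.2. The NCE array on slide 2 stood at 1.03, among the CYGB+ values. Of the other pairs, A_24_P239177 minus A_33_P3417281 was 1.46, 1.58 and 1.51 in NCE and 1.05, 1.37 and 1.04 in CYGB+, again apart (exact permutation p = 0.1, with and without the lowest array), and the NCE array on slide 2 at 1.20 lay among the CYGB+ values. The pair A_24_P239176 minus A_33_P3417281 overlapped (exact permutation p = 0.7).

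**Figure D2:**
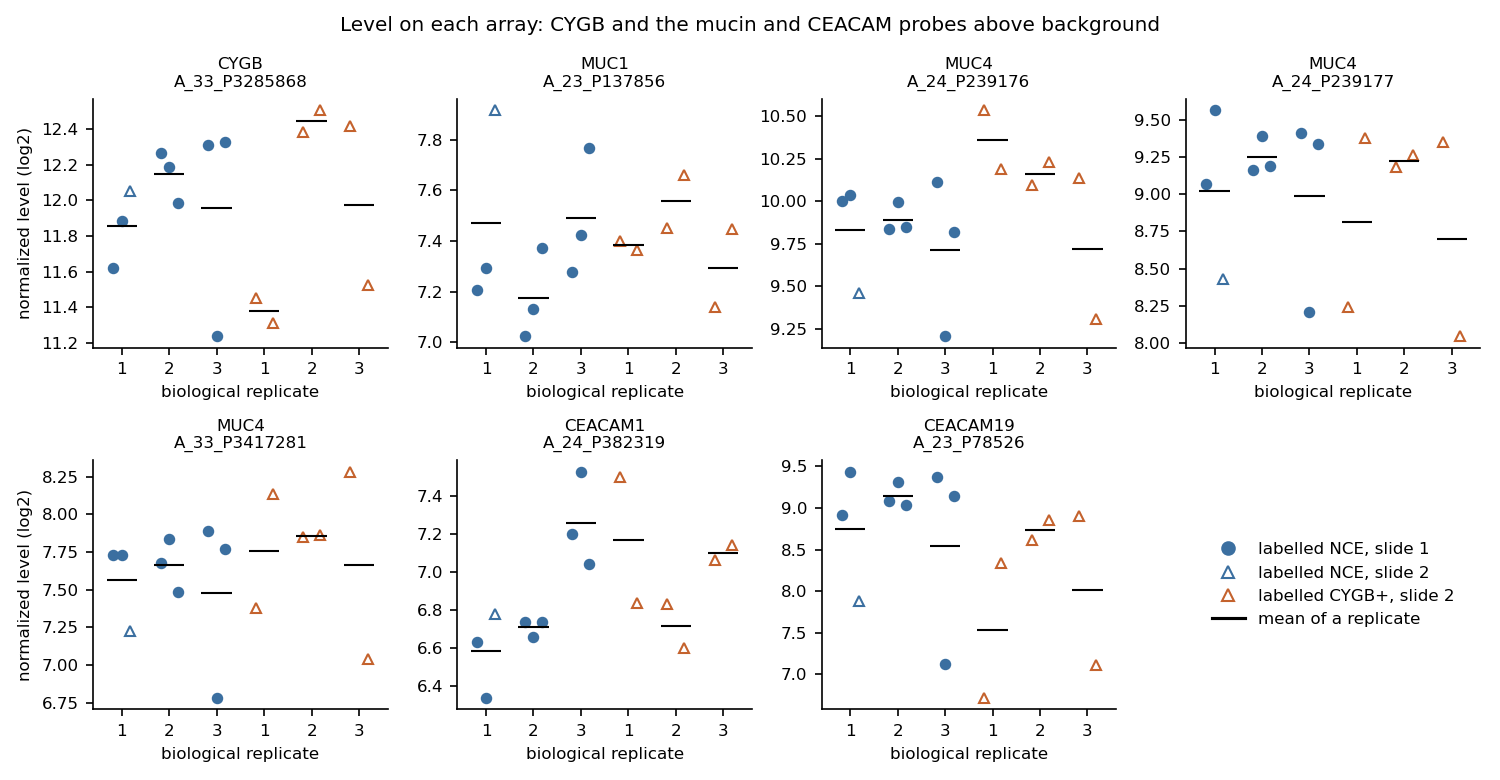
Normalized log2 level on each array of CYGB and the 6 member probes above background, by biological replicate, with slide 1 as filled circles, slide 2 as open triangles and a black line at the mean of a replicate. CYGB is as high in NCE as in CYGB+ libraries, and single arrays of NCE replicates 1 and 3 and CYGB+ replicates 1 and 3 lie far below the others for CEACAM19.

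Among the CEACAMs, sequence is shown for 3 genes to set the promoter of CEACAM1, whose probe was above background, beside those of CEACAM5 and CEACAM6, whose probes were not. The 250 bases upstream of the transcription start (RefSeq, GRCh38.p14, 5′ to 3′ on the strand of the gene) are given with CG dinucleotides in capitals; 7 of the 10 member genes had such a window. The windows are at chr19:42528482-42528731 (minus strand), chr19:41708376-41708625 (plus strand) and chr19:41755280-41755529 (plus strand).
CEACAM1: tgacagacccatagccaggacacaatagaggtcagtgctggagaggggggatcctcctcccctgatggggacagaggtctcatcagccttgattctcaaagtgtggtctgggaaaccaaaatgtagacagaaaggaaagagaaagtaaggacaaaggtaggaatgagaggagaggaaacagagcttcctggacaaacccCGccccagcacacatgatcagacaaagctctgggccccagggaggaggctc
CEACAM5: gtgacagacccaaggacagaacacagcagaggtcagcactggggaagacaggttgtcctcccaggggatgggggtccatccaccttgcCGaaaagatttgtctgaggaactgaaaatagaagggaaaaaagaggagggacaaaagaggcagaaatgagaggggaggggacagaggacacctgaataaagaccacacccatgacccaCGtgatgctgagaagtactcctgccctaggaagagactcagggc
CEACAM6: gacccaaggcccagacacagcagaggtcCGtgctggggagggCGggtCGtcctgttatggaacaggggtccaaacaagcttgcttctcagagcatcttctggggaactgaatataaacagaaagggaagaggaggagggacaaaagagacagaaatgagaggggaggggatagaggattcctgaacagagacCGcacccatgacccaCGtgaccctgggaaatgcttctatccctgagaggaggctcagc

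These windows held 1, 2 and 5 CG dinucleotides, where the median over all 35116 windows was 11 and 38.1% of windows held at most 5. The window of CEACAM7, whose probes were above background on no array, held 1, as that of CEACAM1 did. The pairwise identity of the windows shown, in a global alignment, was 64.4% between CEACAM1 and CEACAM5, 67.6% between CEACAM1 and CEACAM6, and 73.6% between CEACAM5 and CEACAM6. The highest among the CEACAM windows was that of CEACAM5 and CEACAM7 (80.5%). The 15 pairs that included a mucin window lay between 41.1% and 50.4%. The letters TATAAA, on either strand, were found in the CEACAM6 window and in that of MUC1, and in 3763 of the 35116 windows. The sequence is that of the reference genome and was not measured in these cells.

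CEACAM1, an adhesion molecule that can inhibit signalling from receptors, gave 6.58, 6.71 and 7.26 in the NCE libraries and 7.17, 6.72 and 7.10 in the CYGB+ libraries (A_24_P382319). Both groups held replicates near the extremes. The difference was 0.15 (SE 0.20, adjusted p = 0.684), with a 95% interval from −0.33 to 0.62. It was 0.11 with slide as a term and 0.22 within slide 2.

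CEACAM19, a less studied member of the family, was lower in the CYGB+ libraries, and its call depended on the fit. Its probe (A_23_P78526) gave 8.74, 9.14 and 8.55 in NCE and 7.53, 8.73 and 8.01 in CYGB+, so that CYGB+ replicate 2 lay among the NCE values. The difference was −0.72 (SE 0.30, interval −1.43 to −0.01, unadjusted p = 0.0464 in limma, adjusted p = 0.172), a level lower by a factor of 1.65. With the replicate number as a block the limma adjusted p was 0.0461. It was −1.04 without CYGB+ replicate 2 (adjusted p = 0.0442), −0.44 without CYGB+ replicate 1 (adjusted p = 0.314) and −0.56 without NCE replicate 2 (adjusted p = 0.427). On the processed signal it was −1.14 (adjusted p = 0.147).

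**Figure D3:**
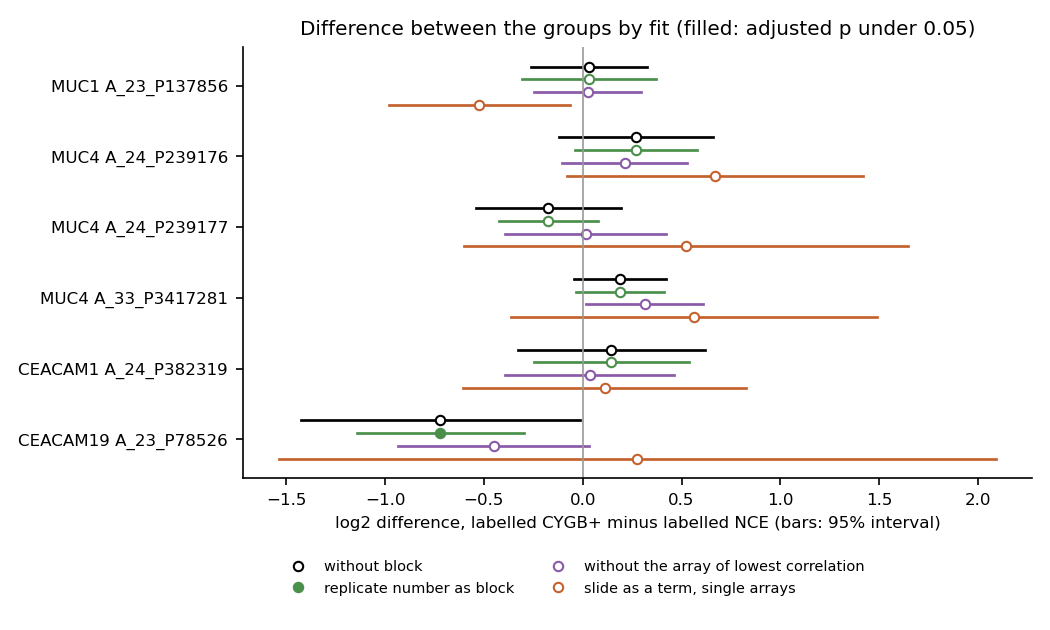
Log2 difference, labelled CYGB+ minus labelled NCE (horizontal axis), with 95% intervals, for the 6 tested member probes under 4 fits. CEACAM19 is −0.72 in the fits without and with the replicate block and 0.28 with slide as a term, where its interval covers 0.

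The CEACAM19 difference also moved with the slide and with single arrays. With slide as a term it was 0.28 (adjusted p = 0.960), and within slide 2 it was 0.21 (adjusted p = 0.931). Both fits rest on the single NCE array on slide 2, whose spread is taken to be that of the other libraries, and without that array the difference was −0.86 (adjusted p = 0.115). Without the array of lowest correlation it was −0.45 (adjusted p = 0.175), and with the replicate block as well the adjusted p was 0.00752, in a fit that called 13.8% of all probes lower. The SD of single arrays within a replicate was 0.90, and that of the replicate means within a group was 0.48. Each of these means averages 2 or 3 arrays, which lowers their spread, so the SDs are unlike measures. Repeats 1 and 2 of CYGB+ replicate 1 read 6.72 and 8.34, those of CYGB+ replicate 3 read 8.91 and 7.11, and the 3 of NCE replicate 3 read 9.37, 7.13 and 9.14. The NCE array on slide 2 read 7.88, 1.29 below the mean of the other arrays of its replicate (9.17).

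CEACAM19 and the MUC4 probes moved together over the arrays, to different degrees. Over the 15 arrays the level of CEACAM19 correlated at Pearson's r = 0.93 with MUC4 probe A_24_P239177, at 0.70 with A_33_P3417281 and at 0.31 with A_24_P239176. For A_24_P239176 it was 0.79 without the array of lowest correlation, which stood high in that probe (10.53) and low in CEACAM19. Repeats of a replicate share their RNA and the arrays of a group mostly share a slide, so these are descriptions of 15 arrays. With the mean of each replicate taken off, r with CEACAM19 was 0.99 for A_24_P239177, 0.96 for A_33_P3417281 and 0.76 for A_24_P239176. The levels thus moved together between arrays of the same RNA. Some arrays were low for CEACAM19 and for both A_24_P239177 and A_33_P3417281, and both group labels and both slides occur among them. How far the correlations rest on those arrays was not tested. CEACAM1 ran the other way, at r = −0.69 with CEACAM19 and −0.63 with MUC4 A_24_P239177. The levels also correlated with the median correlation of an array with the others. Without the lowest array this r was 0.86 for CEACAM19, 0.80, 0.69 and 0.68 for MUC4 probes A_24_P239177, A_33_P3417281 and A_24_P239176, and −0.55 for CEACAM1, and with it 0.77, 0.64, 0.40, −0.24 and −0.62 in the same order. The part of array quality in the differences between groups was not tested.

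**Figure D4:**
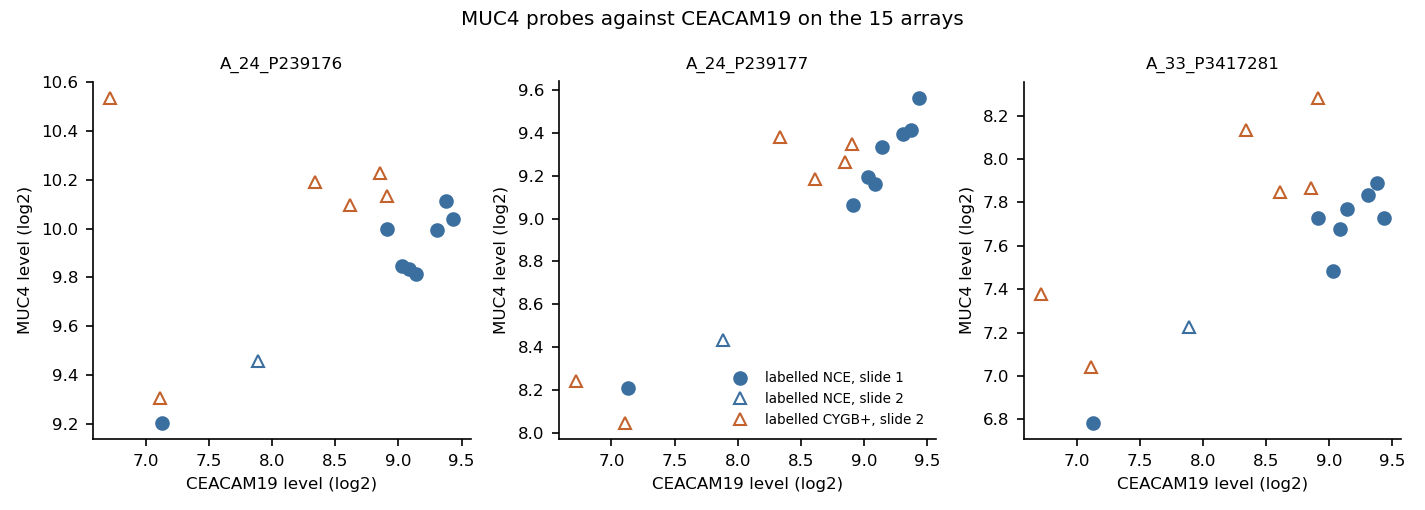
Level of each MUC4 probe (vertical axis, log2) against the level of CEACAM19 (horizontal axis, log2) on the 15 arrays, by group label and slide. In the second panel a few arrays low for both genes lie apart from the rest (r = 0.93 over all), and in the first the array of lowest correlation stands apart at 10.53 for MUC4.

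Genes that act with or on the members were read from the same fit, as 5 lists with 91 genes, of which 58 were tested. Of these, 1 was called higher and 8 lower in the CYGB+ libraries, against 5.57% and 5.37% over all probes. Under the block 2 were called higher and 8 lower, against 6.71% and 6.78% over all probes in that fit. The lists were chosen with earlier results of these data known, so these counts cannot test for an excess of calls. The 6 other mucin genes tested, of 17, gave no call (median 0.20). MCAM (0.28), OVGP1 (0.32) and PARM1 (0.33) were above background on no NCE array and passed the filter only through the CYGB+ arrays. Their NCE levels are therefore bounds, and the median rests partly on them. Of the rest, MUC2 was at −0.22 and MUC6 at 0.11. The sialomucin CD164 was at −0.62 (adjusted p = 0.105), and the block called it lower (adjusted p = 0.0216). Of the other CEACAM and PSG genes, 3 of 17 were tested and none was called (median 0.25). That median is the value of PSG1, which was above background on no NCE array and passed the filter only through the CYGB+ arrays. CEACAM20 was at −0.35 and PSG8 at 0.32, both above background on all arrays.

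Of the 18 mucin-type O-glycosylation enzymes tested, of 23, 1 rose and 1 fell (median −0.09). GALNT14, a transferase that starts O-glycans, rose from 8.69 ± 0.24 to 9.80 ± 0.23 (SD, n = 3; limma adjusted p = 0.0102). B3GNT3, which extends core glycans, fell from 10.34 ± 0.24 to 9.19 ± 0.17 (limma adjusted p = 0.00748). For both genes the groups did not overlap, and with slide as a term the differences were 1.43 and −1.20.

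Of the 16 binding partners, kinases, phosphatases and sheddases tested, 3 fell and none rose (median −0.03). MMP14, a membrane protease, fell by 1.24 on the log2 scale (SE 0.11, adjusted p = 0.00378). LGALS3, a lectin that binds mucin glycans, fell by 0.88 (SE 0.16, adjusted p = 0.0178), and EGFR, a growth factor receptor, fell by 0.78 (SE 0.13, adjusted p = 0.0157). ERBB2, the partner of MUC4, was at −0.05 (adjusted p = 0.804).

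Of the 15 transcription factors tested, 4 fell and none rose (median −0.11). FOXA2, an endoderm-type factor, fell by 1.47 (SE 0.11, adjusted p = 0.00308), and was well above background on all 9 NCE arrays and on 5 of 6 CYGB+ arrays. On the processed signal it was −2.99, with the same direction. HIF1A, the oxygen-regulated factor, fell by 0.91 (SE 0.15, adjusted p = 0.0139). GRHL2 fell by 0.59 (SE 0.13, adjusted p = 0.0336) and EHF by 0.50 (SE 0.12, adjusted p = 0.0459), both epithelial factors. Under the block EHF was not called (adjusted p = 0.0604) and ELF3, at 0.42 (adjusted p = 0.138 without the block), was called higher (adjusted p = 0.0475).

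All 9 called genes kept their direction with slide as a term and within slide 2, and 6 were called with slide as a term. Both fits tell slide and group apart by the single NCE array on slide 2 alone. The slide term was fitted over single arrays, and repeats of a replicate share their RNA. Within slide 2 none of the 9 was called. The exceptions with slide as a term were LGALS3 (−0.55, adjusted p = 0.539), EHF (−0.54, adjusted p = 0.279) and GRHL2 (−0.07, adjusted p = 0.974). GRHL2 was also lost without the array of lowest correlation (adjusted p = 0.0517), and GRHL2 and EHF were lost on the processed signal (adjusted p = 0.0751 and 0.112) and in 5 of the 6 fits without a replicate, GRHL2 staying called without CYGB+ replicate 2 and EHF without NCE replicate 1. EGFR was lost with the processed signal and the 75th percentile (adjusted p = 0.0564). EGFR, LGALS3 and HIF1A were lost without NCE replicate 2 and without NCE replicate 3 (highest adjusted p 0.0753, 0.0753 and 0.0641). MMP14, B3GNT3, GALNT14 and FOXA2 passed in each fit without a replicate and with slide as a term.

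**Figure D5:**
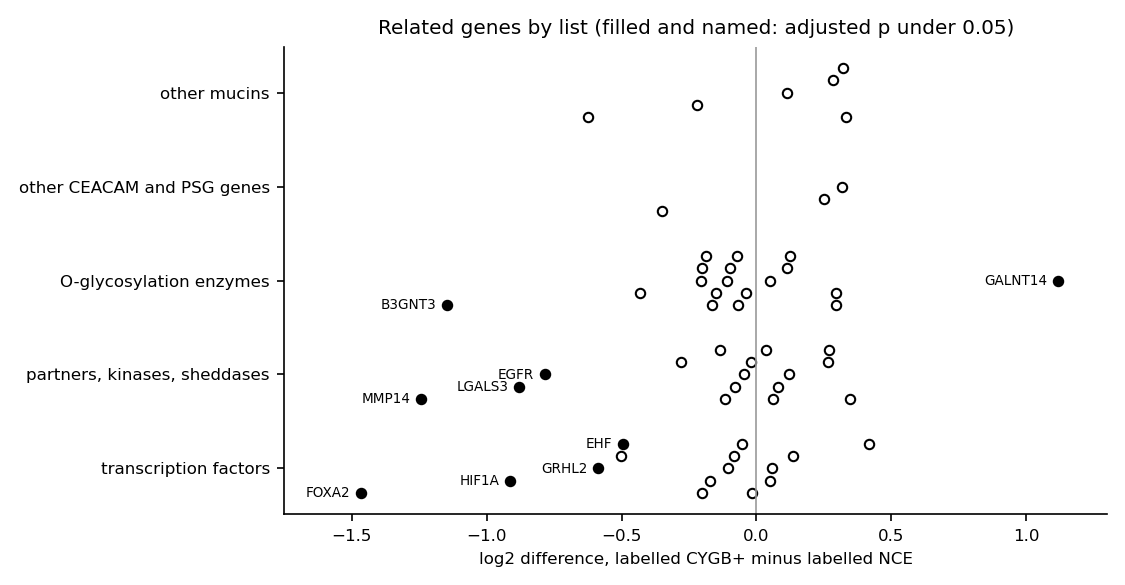
Log2 difference, labelled CYGB+ minus labelled NCE (horizontal axis), of the 58 tested genes of 5 related lists, 1 point a gene. The 9 genes with adjusted p under 0.05 are filled and named, with GALNT14 alone on the higher side.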

How the data were processed

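Green (Cy3) signals of 15 arrays were analysed. The spot and local background intensities were deposited as scanner output from Agilent Feature Extraction 10.7.3.1, which the authors had not normalized between arrays, on a design whose build is hg19 per the file headers. Array precision is limited by the number of arrays. The processed green signal and a value table of 15040 probes on a natural log scale served as alternatives. For these natural log values the authors' methods name quantile normalization of the 1-colour data, and its centring and probe filter are not given in the sources used here (column medians −0.16 to 0.18). This table was read here as green signal, and no comparison of it with the scanner values as a whole is given. Background was corrected by normexp (offset 50) on the median spot and background intensity, because the mean spot intensity that was planned was not in the files used here. Values were put on a log2 scale and quantile normalized over 58717 non-control spots. Spots flagged as outliers were left out, spots of a probe were averaged, and array repeats were averaged per biological replicate, 3 a group. Probes well above background on a share over 0.5 of the arrays of a group were tested by limma 3.58.1 (R 4.3.3) with Benjamini-Hochberg adjustment over 22012 probes at 0.05, without covariates. The limma fit was tested on simulated data for CYGB+ against NCE over 22012 genes, with 100 changed by 1 log2 unit and 100 by 2. There 96% of changes of 1 log2 unit and 99% of changes of 2 were recovered, and 6.25% of the calls were false. Whether these shares hold for the arrays themselves, where slide and group nearly coincide, was not tested. Probes were named through RefSeq accessions, which matched 25419 probes to 19480 genes.

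Deviations from the group means correlated between the groups at 0.21, 0.23 and 0.30 for the same replicate numbers 1, 2 and 3. Unlike numbers gave 0.16 (NCE 3 with CYGB+ 1), 0.21 (NCE 1 with CYGB+ 2) and 0.29 (NCE 2 with CYGB+ 3). The other unlike pairs gave −0.41, −0.49 and −0.50. This check therefore does not single out the pairing by number. The labels give 3 extraction occasions. Whether a number marks a shared occasion is not given in the sources used here. The fit with the number as a block is therefore given beside each result that it changes.

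The member genes, the related lists and the marker lists were chosen with earlier results of these data known. Named were all members by every probe, CYGB, and up to 4 called genes of each related list with the largest difference, by the probe of highest mean level. CD164, ELF3, ERBB2 and the markers with values were named after their values were seen. Alternatives covered the normalization, background, filters, outlier flags, each replicate, the block, the slide as a term over single arrays with the replicate as a random block, slide 2 alone, the probes of a gene and the methods' t-test. Fits without the arrays of lowest correlation, and over single arrays with no slide term, were added after seeing the data. The red channel was not used here.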

Additional observations from a re-analysis of the deposited data

Results flagged for a closer look

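Among the 14 groups of arrays examined, 1 held an array far from the others: MUC4 probe A_24_P239176 in repeat 2 of CYGB+ replicate 3, at a log2 level of 9.31, where the nearest of the other CYGB+ arrays stood at 10.10 (gap over range 0.643, against a limit of 0.625 for 6 arrays). About 1 in 20 groups is flagged by chance.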

How the results depend on the processing

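The count of probes called over the whole array, 2408, was 1519 with normexp and the 75th percentile, 1444 in the authors' value table (of 15031 probes tested), 723 with slide as a term, 5 within slide 2 and 704 by the methods' t-test. It was 4890 over single arrays with no slide term, 4118 without the array of lowest correlation, 5062 without the 3 arrays of lowest correlation, and 6244 with the replicate block and without the lowest array. Leaving out a replicate in turn gave 488 to 2413. The block alone gave 2969.

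No member probe was called higher except in the fit without the 3 arrays of lowest correlation (1, MUC4 A_24_P239176), where 11.9% of all probes were. The count called lower was 1 with the block, 1 with the block and without the lowest array, and 0 to 1 when a replicate was left out, in each case CEACAM19, where 6.78%, 13.8% and, without CYGB+ replicate 2, 3.83% of all probes were called lower. Over the alternatives the difference of CEACAM19 ran from −1.16 to 0.28 and its adjusted p from 0.00752 to 0.960. The block changed the calls of CEACAM19, CD164, EHF, ELF3, EPCAM and KRT14 and no other call reported here. Among the 58 related genes tested 9 were called, and the counts of calls were 5 (authors' value table, 42 genes tested), 18 (single arrays), 3 (methods' t-test), 15 (without 3 arrays), 20 (block, without the lowest array), 4 to 8 (replicates left out), and 0 within slide 2 by limma, where 8 had an unadjusted p under 0.05. Of the 9 themselves, 5 of the 8 in the authors' value table, 2 by the methods' t-test, and 9 in each of the fits with 15, 18 and 20 calls were called.

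Reversals occurred for differences near 0 or with slide. CYGB was 0.0912 with the processed signal and the 75th percentile and 0.0467 in the authors' value table, and −0.31 to 0.22 with a replicate left out. MUC1 was −0.0432 by quantile on the processed signal, −0.11 with the 75th percentile, −0.52 with slide as a term, −0.50 within slide 2, −0.0366 without the 3 arrays, and −0.0700 to 0.0898 with a replicate left out. MUC4 A_24_P239177 was 0.52 with slide as a term, 0.48 within slide 2, 0.0153 without the lowest array (with and without the block) and 0.10 without the 3. CEACAM19 was 0.28 with slide as a term and 0.21 within slide 2. CEACAM1 and the other MUC4 probes kept their direction in every alternative run. The cause was not tested. The 10 dim probes give bounds only, on either slide.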
